A study of Mus musculus with 8 samples.

Results

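WFS1 ChIP-seq peaks were examined at 9 autosomal mouse genes that encode 7 plexins (Plxna1, Plxna2, Plxna4, Plxnb1, Plxnb2, Plxnc1 and Plxnd1) and 2 neuropilins (Nrp1 and Nrp2). The genes form a fixed list that includes Plxna2, which earlier work had placed at the nuclear periphery. At Plxna2 the study reported WFS1 peaks at predicted enhancers with active histone marks. By ChIP-qPCR it also found more WFS1 at the Plxna2 enhancer than at a control region downstream. The question was how the peaks of Plxna2 compare with those of its relatives. Every peak that overlapped a gene or its flanks of 100 kb on either side by at least 1 bp was counted, which gave 40 of the 22292 peaks of the combined set. The peaks came from wildtype, proliferating C2C12 cells, an established mouse myoblast line, crosslinked with DSG and formaldehyde and precipitated with an antibody to WFS1. One immunoprecipitation was divided, and a part was sequenced after 30 sonication cycles and the remainder after 6 further cycles (36 in all). The 2 lists are therefore not replicates, each condition has 1 library, and no test between them was possible. The 6 other libraries of the experiment, which are the inputs and the WFS1 knockout cells expressing WFS1-FlagTag, were not used here.

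Plexins are transmembrane receptors for semaphorins, guidance proteins that steer growing axons, vessels and migrating cells. On binding, the intracellular part of a plexin acts on small GTPases, and the cell retracts or turns through its actin cytoskeleton and its adhesions. Neuropilins are co-receptors: they bind the secreted semaphorins and hand the signal to class A plexins, and they also bind VEGF on vessels. WFS1 is a membrane protein of the endoplasmic reticulum that the study also placed in the inner nuclear membrane. A called peak marks DNA enriched after precipitation with the antibody to WFS1. The measurement therefore says where along these genes such DNA was called, and nothing on how much of each gene is transcribed. The study described its WFS1 signal as somewhat noisy, in part because of the double crosslinking. Whether each single peak is a site of WFS1 was not tested here.

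Peaks were unevenly divided among the 9 genes. Nrp2 had 11 peaks, Plxna1 had 8, Plxna2 had 7 and Nrp1 had 6, whereas Plxnb2 and Plxnd1 had 3 each, Plxnc1 had 2, and Plxna4 and Plxnb1 had none. Thus 7 of the 9 genes had a peak in or within 100 kb, where 76.0% of the 20780 autosomal protein-coding genes did. Inside the gene itself, 5 of 9 genes had a peak, against 25.6% of all genes. The members are long genes, with a median of 115 kb against 17.6 kb. Among the 8526 genes at least as long as the shortest member (a comparison chosen after the values were seen) the share was 42.7%. That shortest member, Plxnb1, spans 24.5 kb, well below the members' median, so that length was matched only in part. Within 1 kb of the annotated start site, 3 of 9 genes had a peak, against 13.8% of all genes, with 2 of 9 in the 30-cycle list (11.4%) and 2 of 9 in the 36-cycle list (6.29%). Of the 40 peaks, 24 lay inside the genes, 10 upstream and 6 beyond the end.

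**Figure D1:**
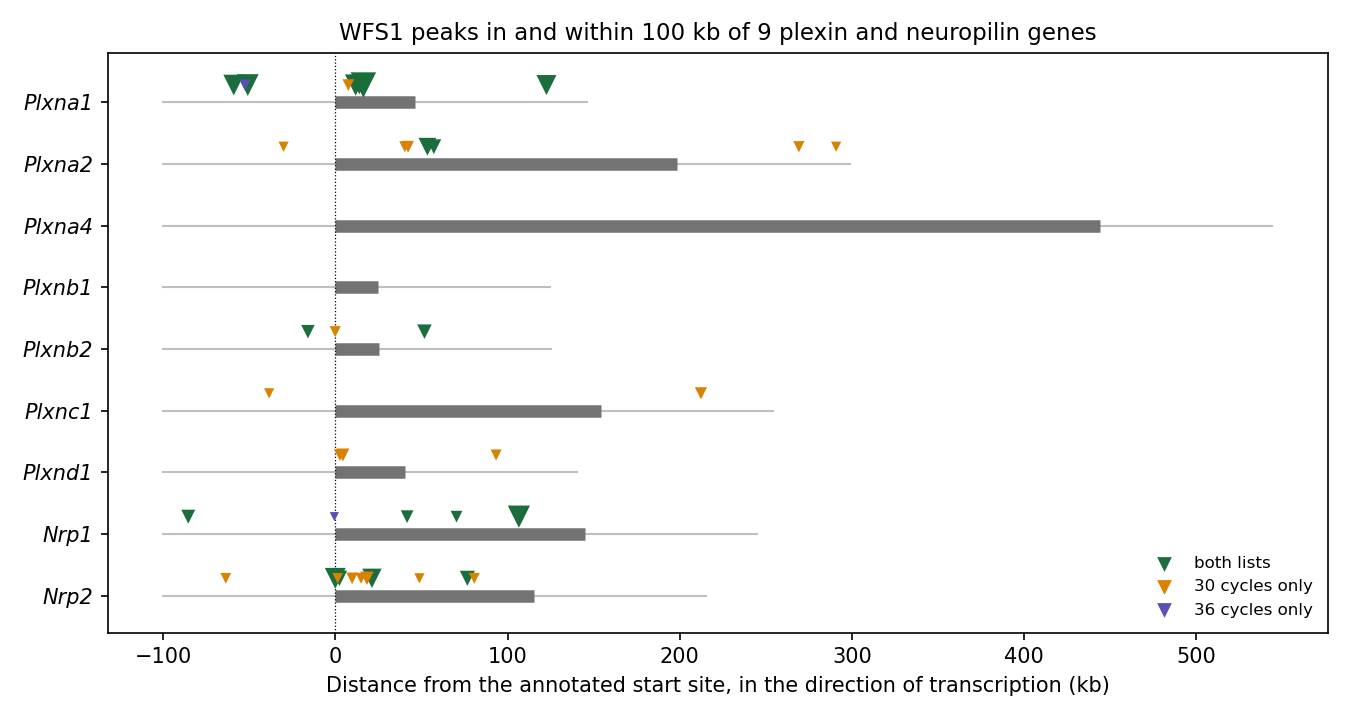
Position of each WFS1 peak relative to the annotated start site (x axis, kb in the direction of transcription), with genes as thick bars and their 100 kb flanks as thin lines. Each triangle is 1 peak, with an area in proportion to its width and a colour for the list or lists it was called in; Plxna4 and Plxnb1 carry none, and the 10 peaks inside Nrp2 begin at its start site.

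Relative to the length searched, the order stayed similar. Nrp2 had 3.49 peaks per 100 kb of gene and flanks, and Plxna1 had 3.25, which placed them above 90.7% and 88.5% of all autosomal protein-coding genes. Plxna2 followed with 1.76 and Nrp1 with 1.74, above 68.1% and 67.8% of genes. Plxnb2 with 1.33, Plxnd1 with 1.25 and Plxnc1 with 0.565 lay around the median of all genes, which was 0.966 peaks per 100 kb. The median of the 9 genes was 1.33. Taken as families, the neuropilins had 2.58 peaks per 100 kb (17 peaks in 2 genes) and the plexins 0.986 (23 peaks in 7 genes).

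**Figure D2:**
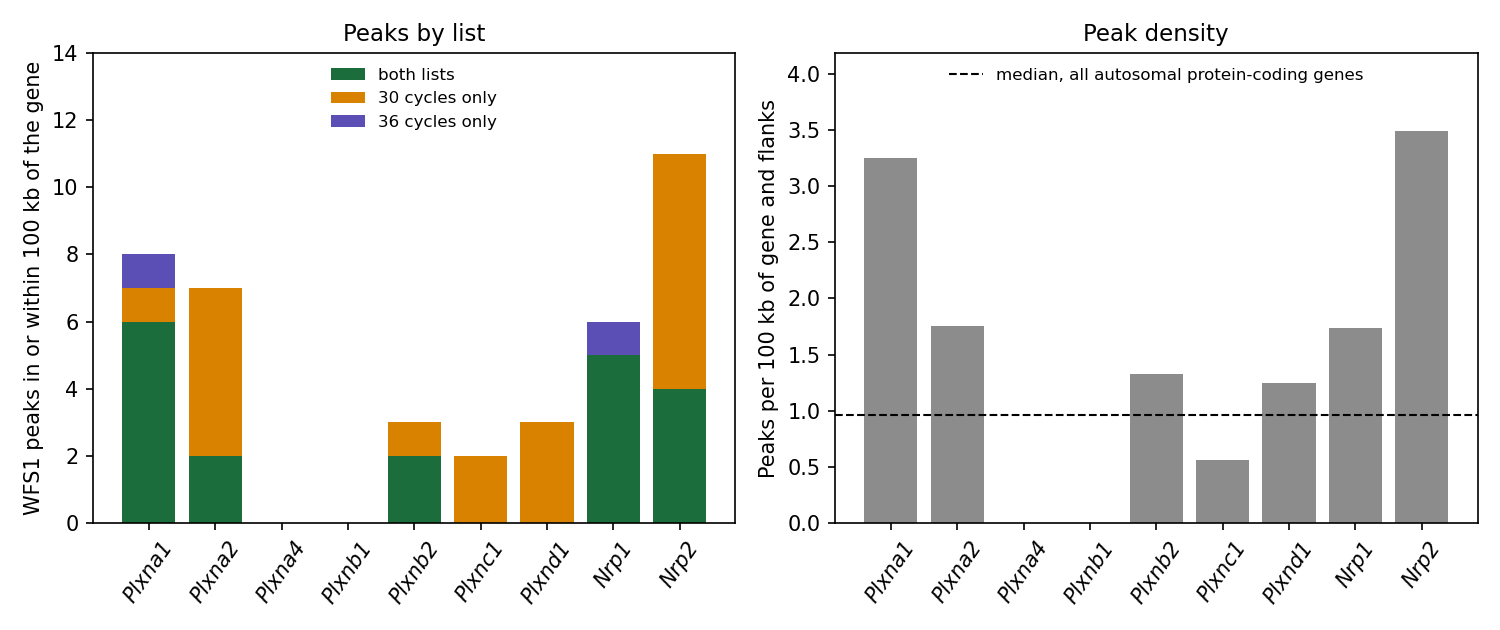
Left, number of WFS1 peaks in or within 100 kb of each gene (y axis), divided by the list they were called in; right, the same peaks per 100 kb of gene and flanks, with the median of all autosomal protein-coding genes, 0.966, as a dashed line. Plxna1 and Nrp1 are mostly peaks of both lists, whereas 5 of 7 peaks at Plxna2 and 7 of 11 at Nrp2 were called after 30 cycles only.

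Plxna2 (ENSMUSG00000026640) encodes a class A plexin, a receptor of secreted semaphorins through neuropilins, and spans 194618218 to 194816869 of chromosome 1 (GRCm38, forward strand). Peaks are numbered along each gene from the most upstream to the most downstream. All 4 peaks inside Plxna2, which are peaks 2 to 5, fell into intron 3 of its 32-exon principal transcript. This intron is 62.5 kb long and is the longest of the gene, making up 31.5% of it. Peaks 2 and 3, at 40.4 and 42.3 kb from the start site, were called after 30 cycles only and were 283 and 322 bp wide. Peak 2 overlapped an exon of a noncoding transcript of Plxna2, and no coding exon. Peak 4 was 728 bp wide in the 30-cycle list and 265 bp wide in the 36-cycle list. Peak 5 was 427 bp wide after 30 cycles and 196 bp wide after 36 cycles. The 36-cycle peak lay within the 30-cycle peak at peak 4 and overlapped its downstream end at peak 5, and these were the only peaks of that list in or within 100 kb of Plxna2.

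The remaining 3 peaks of Plxna2 lay outside the gene and were called after 30 cycles only. Peak 1, 30.0 kb upstream, was 242 bp wide, which is the narrowest width in the 30-cycle list. Peaks 6 and 7 lay 70.5 and 92.2 kb beyond the end of the gene, where the start site of Cd34, a surface protein of blood and muscle progenitor cells, was nearer to them. All bases of peak 6 are annotated as repeats in the reference. None of the 7 peaks lay within 1 kb of the start site, and from the other annotated transcript starts of Plxna2 the nearest peak was 13.7 kb away.

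The intronic peaks of Plxna2 are shown in part. Peaks 4 and 5 are those found in both lists, and peak 3 is added for its motifs, whereas peak 2 held neither motif and is not shown. Sequences here and below are from the forward strand of GRCm38, 5′ to 3′, with CAGCTG (the E-box named in the study, the same on both strands) and TGACTCA or its reverse complement TGAGTCA (an AP-1 site) in capitals. The central 200 bases of peak 4 at chr1:194671976-194672175 held the AP-1 sequence at 2 places, and those of peak 5 at chr1:194675604-194675803 held 1 E-box. The first 100 bases of peak 3, at chr1:194660506-194660605, chosen after the matches were seen, held both.
Plxna2 peak 4: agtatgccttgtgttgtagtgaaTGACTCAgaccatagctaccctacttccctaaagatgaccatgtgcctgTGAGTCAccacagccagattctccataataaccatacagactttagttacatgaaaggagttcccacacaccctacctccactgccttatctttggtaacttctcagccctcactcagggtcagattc
Plxna2 peak 5: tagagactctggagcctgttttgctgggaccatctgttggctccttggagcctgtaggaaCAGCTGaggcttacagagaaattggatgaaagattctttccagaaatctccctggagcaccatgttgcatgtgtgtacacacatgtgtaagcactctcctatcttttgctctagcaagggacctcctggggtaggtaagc
Plxna2 peak 3: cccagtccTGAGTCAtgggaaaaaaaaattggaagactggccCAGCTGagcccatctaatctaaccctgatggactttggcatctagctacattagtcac

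Plxna1 (ENSMUSG00000030084), a class A plexin that also has 32 exons, spans 89316314 to 89362620 of chromosome 6 (reverse strand). It is 46.3 kb long, against 199 kb for Plxna2, yet it carried as many peaks inside the gene. Peaks 5, 6 and 7, at 11.8, 14.0 and 16.3 kb from the start site, lay in intron 3, again the longest intron of the gene (10.7 kb, or 23.2% of it). All 3 were found in both lists. Their widths in the combined set were 1047, 787 and 1498 bp, and gaps of 1112 and 1548 bp separated them. Peak 7, the widest of all 40 peaks and wider than 98.6% of the combined set, joined 2 peaks of each list and overlapped Gm44207, an annotated gene of unestablished status. Peak 4, found only in the 30-cycle list with 315 bp, covered part of exon 3, which is coding.

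Outside Plxna1, a group of 3 peaks lay 50.8, 52.5 and 59.0 kb upstream of the start site, within the neighbouring gene Chchd6. Peaks 1 and 3 of this group were found in both lists and were 991 and 1094 bp wide. Peak 2, 290 bp wide, was 1 of only 2 peaks among the 40 called after 36 cycles only. Peak 8 lay 76.3 kb beyond the end of the gene, in both lists, with a width of 927 bp. For each of these outside peaks, the start site of Plxna1 was nevertheless the nearest of any protein-coding gene. In the combined set, the 6 both-list peaks of Plxna1 were wider than those of Plxna2, at 787 to 1498 bp against 503 and 728 bp. In the 30-cycle list the widths overlapped, since Plxna1 peaks 6 and 8 had 504 and 714 bp and Plxna2 peak 4 had 728 bp. In the 36-cycle list they did not, at 302 bp or more against 265 and 196 bp. The difference was not tested.

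The part of Plxna1 peak 6 at chr6:89347980-89348179 is shown because it holds 4 of the 6 E-boxes of that peak, and was chosen for that after the matches were seen. The central 200 bases of peak 3, at chr6:89413867-89414066, represent the widest both-list peak of the gene whose centre touches no annotated exon.
Plxna1 peak 6: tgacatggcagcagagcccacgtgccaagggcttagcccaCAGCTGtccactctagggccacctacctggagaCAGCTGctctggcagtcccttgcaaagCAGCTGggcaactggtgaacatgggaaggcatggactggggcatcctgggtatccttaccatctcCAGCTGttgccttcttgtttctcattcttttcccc
Plxna1 peak 3: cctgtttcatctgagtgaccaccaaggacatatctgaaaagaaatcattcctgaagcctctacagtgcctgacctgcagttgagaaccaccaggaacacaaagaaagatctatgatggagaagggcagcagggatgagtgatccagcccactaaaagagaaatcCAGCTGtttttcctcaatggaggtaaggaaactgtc

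Plxna4 (ENSMUSG00000029765), a class A plexin known from axon guidance in the nervous system, had no peak. It spans 32144268 to 32588192 of chromosome 6 (reverse strand) and is the longest of the 9 genes, with 444 kb. Its intron 3, like those of Plxna1 and Plxna2 the longest of its gene, spans 186 kb. The nearest peak to the gene in either list lay 110 kb upstream of its start site, was 268 bp wide and was called after 30 cycles only. Of the 275 genes at least as long as Plxna4, 61 (22.2%) had no peak in or within 100 kb, and of all autosomal protein-coding genes 24.0%. A lack of peaks over this length was thus not rare. At the unknown depth of these libraries, no call does not show that WFS1 was absent.

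Class B plexins bind membrane-bound semaphorins. Plxnb1 (ENSMUSG00000053646), which spans 109095389 to 109119917 of chromosome 9 (forward strand), had no peak within 100 kb. The nearest was 112 kb away, 195 bp wide and called after 36 cycles only. Plxnb2 (ENSMUSG00000036606) spans 89155549 to 89180788 of chromosome 15 (reverse strand), and it had 3 peaks, all of them outside the gene. Peak 2, called after 30 cycles only and 283 bp wide, had its nearer edge 43 bp before the start site of Plxnb2. Peaks 1 and 3 were found in both lists, with 422 and 486 bp, but lay at the starts of neighbouring genes. Peak 1 was 0.165 kb from the start of Dennd6b, which encodes a regulator of Rab GTPases, and peak 3 covered the start of Hdac10, which encodes a deacetylase.

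The central 200 bases of peak 2, at chr15:89180873-89181072, show the sequence next to the Plxnb2 start, with 65.5% GC and 15 CpG dinucleotides, and this stretch was chosen after the values were seen. Those of peak 1, at chr15:89196772-89196971, show the both-list peak beside Dennd6b, with 50.5% GC and 8 CpG. Neither held an E-box or an AP-1 sequence.
Plxnb2 peak 2: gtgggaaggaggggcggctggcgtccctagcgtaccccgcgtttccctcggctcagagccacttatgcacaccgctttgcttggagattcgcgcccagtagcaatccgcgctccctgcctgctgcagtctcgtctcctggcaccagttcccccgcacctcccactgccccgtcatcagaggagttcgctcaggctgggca
Plxnb2 peak 1: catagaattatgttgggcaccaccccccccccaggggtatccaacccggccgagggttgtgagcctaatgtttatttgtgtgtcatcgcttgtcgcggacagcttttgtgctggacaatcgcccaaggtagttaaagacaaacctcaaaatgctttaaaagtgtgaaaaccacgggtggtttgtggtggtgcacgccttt

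Plxnc1 (ENSMUSG00000074785), which encodes the receptor of Sema7a, spans 94790866 to 94944835 of chromosome 10 (reverse strand). Its 2 peaks were called after 30 cycles only, 38.4 kb upstream of the start (242 bp) and 58.3 kb beyond the end (344 bp), so that the 154 kb of the gene held none. The second lay within Cep83. Plxnd1 (ENSMUSG00000030123), whose product binds Sema3e and acts in vessel patterning, spans 115954811 to 115995005 of chromosome 6 (reverse strand). It had 2 peaks in its first and longest intron, 2.67 and 4.41 kb from the start, with widths of 320 and 393 bp. A further peak of 284 bp lay 53.2 kb beyond its end, within Ift122. All 3 were called after 30 cycles only, so neither Plxnc1 nor Plxnd1 had a peak in the 36-cycle list.

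Nrp1 (ENSMUSG00000025810) spans 128358604 to 128503363 of chromosome 8 (forward strand) and encodes the neuropilin best known as a co-receptor of Sema3a and VEGF. Of its 6 peaks, 5 were found in both lists. Peaks 3 to 6 lay inside the gene at 41.7, 70.4, 106 and 107 kb from the start, in introns 2, 4, 8 and 8. Peak 3 was 376 bp wide after 30 cycles and 205 bp after 36 cycles, and peak 4 was 318 and 261 bp wide. Peaks 5 and 6 were separated by 252 bp. Peak 6 was 1139 bp wide in the 30-cycle list and 572 bp in the 36-cycle list, and was the widest of Nrp1. Peak 1 lay 85.4 kb upstream of the gene. Peak 2 lay 0.529 kb upstream of the start, was called after 36 cycles only, and had 195 bp, which is the narrowest width of that list.

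Nrp2 (ENSMUSG00000025969), the co-receptor best known for Sema3f, spans 62703285 to 62818695 of chromosome 1 (forward strand). Its 10 peaks inside the gene placed it above 99.5% of autosomal protein-coding genes by number, and above 94.2% by number per length. Peak 2 of Nrp2 was the only peak of the 40 that covered the start site of a plexin or neuropilin gene. The 30-cycle peak, from 62703083 to 62703884, spanned the start and part of exon 1. The 36-cycle peak, from 62703822 to 62704087, began 0.537 kb downstream of the start, still in exon 1, and overlapped the former only at its end. Peaks 3 to 6 followed in intron 1 at 1.40, 2.42, 9.78 and 15.0 kb, and peaks 7 and 8 in intron 2 at 18.4 and 21.3 kb. Thus 7 of the 10 peaks inside Nrp2 lay between the start site and the end of intron 2. Peaks 9, 10 and 11 lay at 48.9, 76.7 and 80.7 kb in introns 7, 12 and 13, and intron 15, the longest with 29.0 kb, held none. Peaks 2, 4, 8 and 10 were found in both lists, with 1005, 550, 867 and 532 bp, and the others, after 30 cycles only, were 242 to 418 bp wide. Peak 1, 63.6 kb upstream, overlapped an exon of Pard3b.

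For Nrp2, the 200 bases before the annotated start site, all of them within peak 2, are shown at chr1:62703085-62703284, because the centre of this peak lies in the transcribed leader. This stretch had 73.5% GC and 27 CpG dinucleotides. The central 200 bases of the intronic peak 8, at chr1:62724906-62725105, had 49.5% GC and 2 CpG, and held 1 of the 3 E-boxes of that peak. The widest peak of Nrp1, at chr8:128465690-128465889, held neither motif in its central 200 bases, although the whole peak held 1 of each.
Nrp2 peak 2: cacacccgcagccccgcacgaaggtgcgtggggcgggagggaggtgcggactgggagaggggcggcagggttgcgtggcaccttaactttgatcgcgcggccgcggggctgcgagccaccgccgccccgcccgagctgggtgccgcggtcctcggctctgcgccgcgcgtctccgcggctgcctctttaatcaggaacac
Nrp2 peak 8: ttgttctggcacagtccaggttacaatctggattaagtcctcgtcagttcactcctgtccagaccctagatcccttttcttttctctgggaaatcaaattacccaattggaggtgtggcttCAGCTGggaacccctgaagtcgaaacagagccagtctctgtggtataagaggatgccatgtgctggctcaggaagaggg
Nrp1 peak 6: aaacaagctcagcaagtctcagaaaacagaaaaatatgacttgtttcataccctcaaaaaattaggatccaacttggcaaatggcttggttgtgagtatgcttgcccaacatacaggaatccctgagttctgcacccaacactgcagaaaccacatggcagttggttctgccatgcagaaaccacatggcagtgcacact

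The peak density of Plxna2 could not be told apart from that of its relatives. Its 1.76 peaks per 100 kb were 1.38 times the 1.27 of the other 8 genes together (exact 95% interval 0.515 to 3.17, counting error of peaks only). Against the other 6 plexins, which had 0.827 peaks per 100 kb, the ratio was 2.12 (0.738 to 5.45), and against both neuropilins, with 2.58, it was 0.682 (0.239 to 1.73). In the 36-cycle list alone the ratio to the other 8 genes was below 1, at 0.651 (0.0738 to 2.68), and with peaks wider than the median it was 0.766 (0.0858 to 3.23), so that the direction depended on the list and on peak width. With peaks inside the genes only, both densities were 2.01 per 100 kb. The density of the other 8 pooled unlike genes, from 0 in Plxna4 to 8.64 in Plxna1 and 8.67 in Nrp2. Single genes were not compared by their inside peaks. Taken singly, the ratio of Plxna2 to the 6 genes with any peak ranged from 0.503 against Nrp2 (0.165 to 1.42) to 3.11 against Plxnc1 (0.592 to 30.7), and each of these 6 intervals, which were not adjusted for their number, included 1. Intervals this wide leave room for several-fold differences in either direction. Neighbouring peaks are not independent, so that the true uncertainty is larger still. For Plxna4 and Plxnb1, with 0 peaks against 7 at Plxna2, no ratio is given. Their gene and flanks span 643.9 and 224.5 kb, against 398.7 kb for Plxna2. Whether Plxna2 differs from these 2 genes was not assessed.

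The genes also differed in the list in which their peaks were called, which was not tested. Of the 40 peaks, 19 (47.5%, 95% Wilson interval 32.9 to 62.5) were found in both lists, where 35.4% of all peaks on nuclear chromosomes were, and this difference lay within the counting error of the 40 peaks. When both lists had to cover at least 50% of a peak, the share was 22.5% (12.3 to 37.5), against 23.4% of all peaks (a background added after the values were seen). A further 19 were found in the 30-cycle list alone and 2 in the 36-cycle list alone (5.00%, 1.38 to 16.5, against 19.1% of all peaks). The interval of this last share lay below the share of all peaks. It covers counting error only, takes neighbouring peaks as independent and was not adjusted for the number of shares compared. Plxna1 and Nrp1 held 11 of the 19 both-list peaks. Inside the genes 13 of 24 peaks were in both lists, and outside 6 of 16. In the 30-cycle list, 7 of 9 genes had a peak in or within 100 kb (73.2% of all genes), and in the 36-cycle list 5 of 9 (60.6%). Inside the gene, the 36-cycle list had a peak in 4 of 9 genes, namely Plxna1, Plxna2, Nrp1 and Nrp2, against 15.6% of all genes.

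Both-list peaks were the wider ones in the combined set, where joining makes a peak at least as wide as each of its parts. The 19 had a median width of 728 bp (range 318 to 1498), against 623 bp for all both-list peaks, and the 19 called after 30 cycles only had a median of 283 bp (242 to 418), against 324 bp. Of the 18 both-list peaks made of a single peak of each list, 14 were wider after 30 cycles and 4 after 36 cycles, with medians of 512 and 351 bp. The exceptions were Plxna1 peak 6, Plxnb2 peak 1, Nrp1 peak 5 and Nrp2 peak 4. Median GC content was 49.8% in the 40 peaks and 47.1% in all peaks, and the median share of repeat bases was 10.3% and 11.5%. The highest GC contents were those of the start-site peaks of Plxnb2 (66.8%) and Nrp2 (63.0%).

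**Figure D3:**
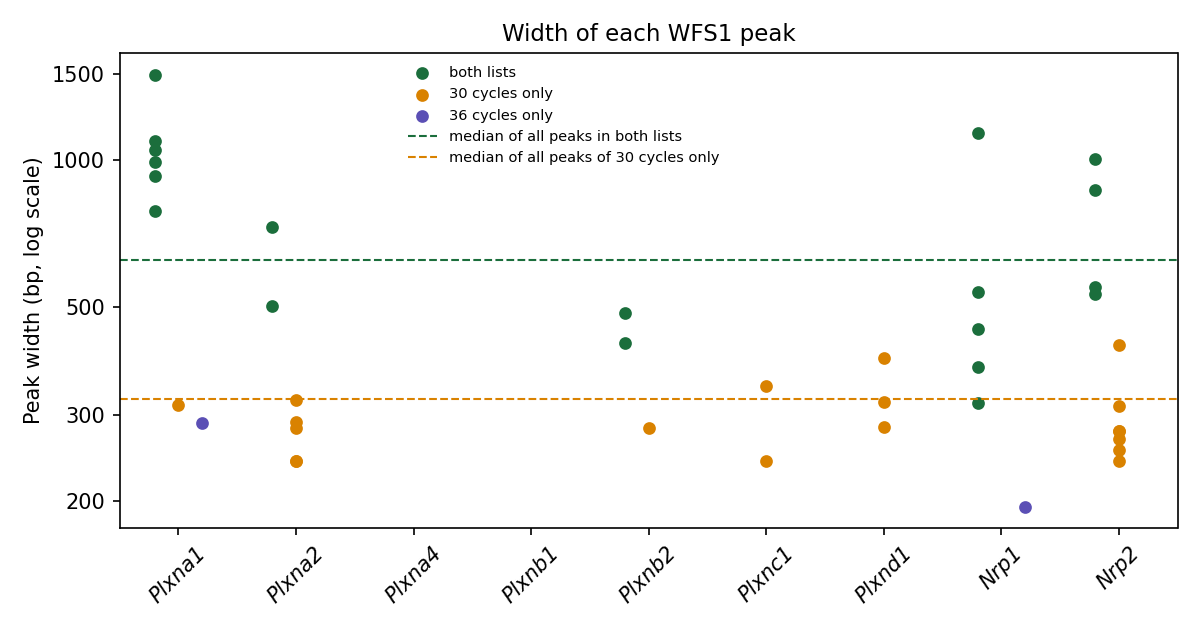
Width of each of the 40 peaks in the combined set (y axis, bp on a log scale) by gene and list, with the medians of all peaks of both lists (623 bp) and of 30 cycles only (324 bp) as dashed lines. Both-list peaks are joined from the peaks of both lists, so that they are at least as wide as each part. All 6 both-list peaks of Plxna1 lie above the upper line, whereas those of Plxnb2 lie below it.

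E-boxes were found in the peaks of 4 of the 9 genes, of which only 7 had a peak in or within 100 kb. The share of all genes with an E-box in a peak was not computed. CAGCTG occurred somewhere in 13 of the 40 peaks (32.5%, 20.1 to 48.0), where 32.8% of all peaks held it, and TGACTCA in 11 (27.5%, 16.1 to 42.8), where 31.2% did. Of the 13 peaks with an E-box, 12 were found in both lists (12 of 19, against 46.8% of all both-list peaks), and 1 after 30 cycles only (1 of 19, against 26.9%). Wider peaks offer more bases for a match. The 27 E-boxes lay in peaks of Plxna1, Plxna2, Nrp1 and Nrp2, with 16 of them in peaks of Plxna1. Of these 16, peaks 3 and 8, which lay outside Plxna1, held 2 and 3. No peak of Plxnb2, Plxnc1 or Plxnd1 held one, but these genes had only 3, 2 and 3 peaks. For TGACTCA, 7 of the 19 both-list peaks held it, against 44.8% of all both-list peaks. Within the central 200 bases, 5 peaks held CAGCTG (12.5%, 5.46 to 26.1) and 2 held TGACTCA (5.00%, 1.38 to 16.5). Of all peaks, 18.0% and 17.9% did, so that the interval of TGACTCA lay below the share of all peaks. The cause was not tested. That interval rests on 2 of 40 peaks, takes neighbouring peaks as independent and was not adjusted for the number of shares compared. A match is a description of the reference sequence and not a measured site.

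Of the 40 peaks, 34 had the member gene's own start site as the nearest start of a protein-coding gene. The other 6 were peaks 6 and 7 of Plxna2, peaks 1 and 3 of Plxnb2, peak 2 of Plxnc1 and peak 3 of Plxnd1. All 24 peaks inside the genes were nearest to the gene's own start, and 22 of them lay in introns of the principal transcript. Plxna3 and Plxnb3, the X-linked plexins, had 2 and 0 peaks in or within 100 kb, and none inside the gene.

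Other genes of the pathway were taken from written lists. Of 20 semaphorins, the ligands, 12 had a peak inside the gene, of 13 partner receptors and VEGF-type ligands 5, and of 30 intracellular mediators 18, against 25.6% of all genes and 5 of 9 among the plexins and neuropilins. These shares were 60.0% (38.7 to 78.1), 38.5% (17.7 to 64.5) and 60.0% (42.3 to 75.4). The median lengths of the lists were 34.3, 45.6 and 51.1 kb, all above the 17.6 kb of all genes. At the start site, 4 of 20 semaphorins, 3 of 13 partners and 12 of 30 mediators had a peak, against 13.8% of all genes. Sema3a, a secreted ligand of Nrp1 that repels axons, had 8 peaks inside the gene, 4 of them in both lists, the first 239 kb from its start. Sema5a had 6 and Sema3c 5, with 2 and 3 in both lists. Sema3a, Sema5a and Sema3c are long genes, of 477.2, 451.5 and 156.0 kb. Per 100 kb of gene and flanks they had 1.33, 1.38 and 3.37 peaks, against a median of 2.18 for the 20 semaphorins.

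Among the partners, Nrcam, an adhesion molecule, had 2 intragenic both-list peaks of 832 and 829 bp, 196 and 199 kb from its start. Met, the receptor of hepatocyte growth factor, and Vegfa had 2 each, with a peak over the start of Met (635 bp) and 0.215 kb from that of Vegfa (422 bp). Among the mediators, Mical2, an enzyme that oxidizes actin, had 8 peaks inside a gene of 187.3 kb (5 in both lists). Farp1, a Rac exchange factor bound by class A plexins, had 6 inside a gene of 248.5 kb (2 in both lists). Rnd3, a small GTPase that lowers contractility, had 6 within a gene of 18.7 kb, with 2 in both lists. Both-list peaks within 1 kb of the start were found at Dpysl3, Rnd2, Rnd3 and Mras, of which that of Dpysl3 was 1667 bp wide and covered the start. Among plexins and neuropilins, only Nrp2 had a both-list peak there, and no semaphorin or partner did. The share of all genes with such a peak was not computed, so that these counts have no background.

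**Figure D4:**
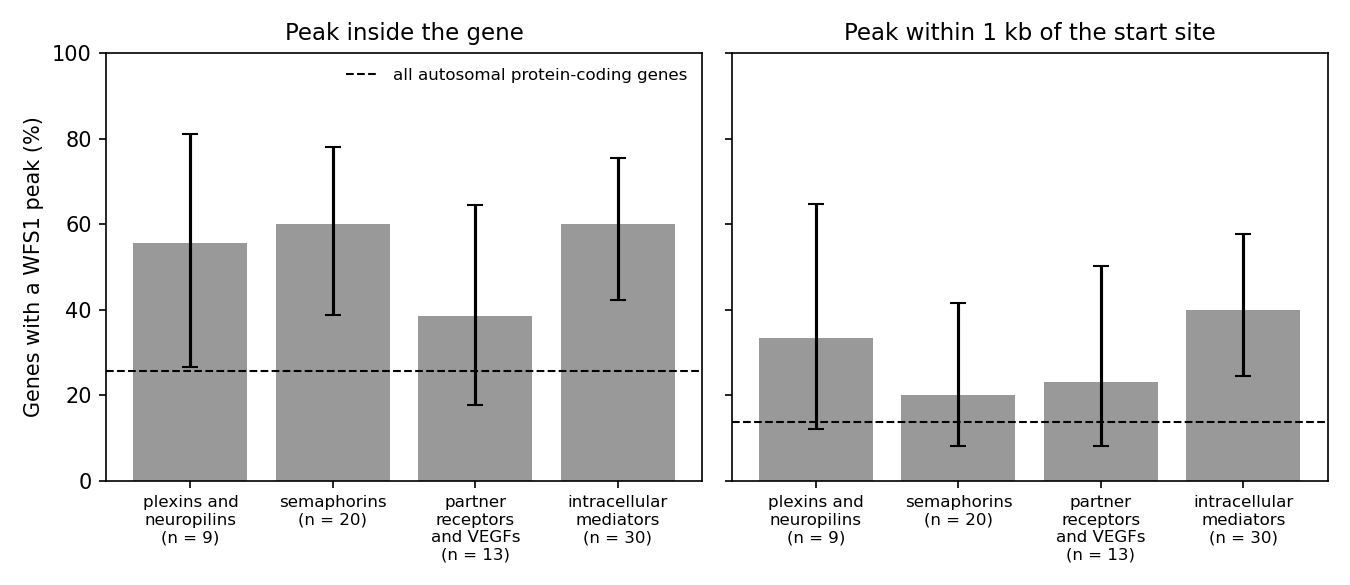
Percent of genes with a WFS1 peak inside the gene (left) and within 1 kb of the start site (right) for the 9 plexins and neuropilins and for 3 lists of the pathway, with 95% Wilson intervals that cover counting error of genes only. Dashed lines give all autosomal protein-coding genes, 25.6% and 13.8%, whose genes are shorter.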

How the data were processed

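The authors mapped the ChIP-seq reads to GRCm38 with NextGenMap, discarded poorly mapped reads and ran MACS2 on each library separately. The control used in peak calling is not given in the sources used here. The deposited lists (18283 peaks after 30 cycles, 12674 after 36 cycles) hold positions only, so that peak heights and sequencing depth are unknown and a stricter threshold could not be applied.

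Here, both lists were joined with bedtools merge (bedtools 2.31.1). Genes, exons and 1 start site per gene (its 5′ end) came from GENCODE mouse release 21, and the principal transcript was the longest one tagged as APPRIS principal. Distances run from the nearest edge of a peak. Positions are counted from 1. Bases, repeats and motifs (both strands, whole peak) were read from GRCm38. Shares have 95% Wilson intervals and ratios of densities exact intervals conditional on the total (scipy 1.17.1). These intervals cover counting error only. Python 3.11.15 and pandas 2.3.3 were used, and counting, distances, joining and motif search were checked on simulated data.

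The genes, lists and alternatives were chosen with earlier results of these data known. Named in the text are all 9 members and the 3 genes of each pathway list with the most peaks inside. Ties were broken by the wider summed peak width. By this rule Sema3e, Flt1 and Vegfc were not described, although they tied in number with a described gene. Also named are listed genes with a both-list peak within 1 kb of the start, Plxna3 and Plxnb3 by their counts, and neighbours whose start lay within 1 kb of a peak. Other neighbours (Cd34, Chchd6, Gm44207, Cep83, Ift122 and Pard3b) were named after their values were seen. Sequences follow a rule on both-list peaks unless the text says otherwise.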

Additional observations from a re-analysis of the deposited data

How the results depend on the processing

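No paired analysis was possible because there is only 1 library for each number of cycles. Of 56 values under alternatives, 38 stayed near the reported value (within 1.5 times for counts, within the interval for shares and ratios, within 0.5 kb for distances) and 18 moved. With flanks of 200 kb, 62 peaks were counted at the 9 genes, of which 2 were at Plxna4 and 3 at Plxnb1. The 36-cycle list alone gave 22 peaks, 14 of them inside the genes, and peaks inside 6 semaphorins. In that list the nearest peak lay 12.3 kb from the start of Plxna1, 53.8 kb from that of Plxna2, 16.0 kb from that of Plxnb2 and 0.537 kb from that of Nrp2, and Plxnc1 and Plxnd1 gave no value. In the 30-cycle list alone, it lay 41.7 kb from the start of Nrp1. From any annotated transcript start, it lay 2.22 kb away at Plxna1 and 13.7 kb at Plxna2. Peaks wider than the median numbered 19, with 13 inside the genes, and lay inside 7 semaphorins and 3 partners. When at least 50% of a peak had to be covered by both lists, 22.5% counted as shared. In the central 200 bases, 12.5% of the peaks held CAGCTG and 5.00% TGACTCA. Fewer peaks, longer flanks or fewer bases change what was counted, but the causes of the moved values were not tested. The density of Plxna2 over that of the other members was 0.651 in the 36-cycle list and 0.766 among the wider peaks, against 1.38 as reported, so that its direction turned, though both lay inside the reported interval of 0.515 to 3.17. The unknown depth limits every count.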

Other observations

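Several peaks of these genes had exactly the narrowest width of their list. In the 30-cycle list, 1305 of 18283 peaks (7.14%) were 242 bp wide, and 4 of the 40 peaks had this width, namely Plxna2 peaks 1 and 7, Plxnc1 peak 1 and Nrp2 peak 9. In the 36-cycle list, 967 of 12674 peaks (7.63%) were 195 bp wide, among them Nrp1 peak 2. Leaving these peaks out would remove peaks 1 and 7 of Plxna2, the peak upstream of Plxnc1, peak 9 of Nrp2 and the peak at the start of Nrp1. Peak 1 of Plxna2 is the nearest to its start site, whereas the 4 peaks inside Plxna2 were 283 bp or wider.

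E-boxes were close together in a few peaks. In Nrp1 peak 3, 2 CAGCTG started at 128400491 and 128400517, within 20 bp of the peak centre on either side. In Plxna1 peak 6, 4 of the 6 started between 89348020 and 89348145. In Nrp2 peak 8, 2 lay at 62725294 and 62725301. These were noticed after the matches were seen, and no share of other peaks with such pairs was computed.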
